A study of Mus musculus with 36 samples.

Results

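The genes described here are 7 regulators that form feedback loops around the tumour suppressor p53: Mdm2, Mdm4, Ppm1d, Rchy1, Cop1, Ccng1 and Trp53inp1. They were taken by symbol from a table of RNA sequencing counts of 27179 mouse genes, and their rows were read in all 36 libraries. All 7 passed the filter on low counts, which left 12321 genes tested. The libraries come from 3 cell lines, AH47A, 287 and 621, with the labelled background Em-myc, a Myc transgene under an immunoglobulin heavy chain enhancer that produces B cell lymphoma. Each line carried either a negative control construct or a mutant TRP53 labelled G280, I192S, R246Q, R270H or V170M. Every one of these 6 constructs was sampled in each line untreated and after nutlin, which makes 12 groups of 3 libraries, 1 per line. Nutlin cultures had 5 µM nutlin-3a for 12 hours together with 25 µM QVD-OPH, a caspase inhibitor. The sources used here do not say whether untreated cultures had QVD-OPH too, so the nutlin responses given here can contain its effect. No independent repeat of any line is labelled, so p-values measure the spread between these libraries.

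As background, p53 is a transcription factor that stress stabilises, and several of its targets in turn limit it. MDM2 is the ubiquitin ligase that binds p53, blocks its activity and sends it to the proteasome, and MDM4 is its relative that binds and inhibits p53 and pairs with MDM2. RCHY1 (also called PIRH2) and COP1 are 2 further ubiquitin ligases of p53. PPM1D (WIP1) is a phosphatase that removes damage-induced phosphates from p53 and its kinases, cyclin G1 (the product of Ccng1) recruits the phosphatase PP2A to MDM2, and TP53INP1, the product of Trp53inp1, acts in the opposite direction by promoting p53 phosphorylation. Nutlin-3a occupies the pocket of MDM2 in which p53 sits, so that wild-type p53 is released. Many mutant p53 proteins can pair with wild-type p53 and hamper it, and the design asks what each mutant does to the response of lines that are treated to activate wild-type TRP53.

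Total counts ran from 5404113 to 10718302 per library. Summed levels of 10 B lineage markers were 4521 to 7497 CPM (counts scaled to the library size after TMM normalisation) in all libraries, with all 10 detected in every line. Markers of T cells, myeloid, erythroid and fibroblast cells each stayed far lower, at most 58.5 CPM for any list in any library. Trp53 itself lay between 206 and 291 CPM in the 3 untreated control libraries and between 693 and 2586.5 CPM in the 15 untreated mutant ones, so the groups did not overlap. After nutlin it was 261 to 446 CPM with the control and 446 to 2024 CPM with the mutants. By the series' design text the mutants are human TRP53, but the table counts reads on mouse genes, so the Trp53 values can mix transcripts of the cell and of the construct in unknown parts.

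The genes sit on 5 chromosomes of GRCm38.p6 (RefSeq, 1-based). Mdm2 (gene 17246) spans chromosome 10 from 117688875 to 117710758, and Mdm4 (17248) spans chromosome 1 from 132986105 to 133030587, both on the minus strand. Ppm1d (53892) lies on chromosome 11 from 85311254 to 85347071 on the plus strand, and Ccng1 (12450) on the same chromosome from 40748552 to 40755309 on the minus strand. Rchy1 (68098) covers chromosome 5 from 91948842 to 91963145 (minus), Cop1 (26374) chromosome 1 from 159232156 to 159354872 (plus), and Trp53inp1 (60599) chromosome 4 from 11156441 to 11174379 (plus). Rchy1 shares 680 exonic bases with Thap6 on the opposite strand. The strand setting of the counting is not given, so reads of these bases cannot be told apart. Thap6 held 2897 counts over all libraries and Rchy1 7882. The other members share no exonic base with another annotated gene.

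Because these genes include textbook p53 targets, the windows upstream of their annotated starts were searched for the p53 consensus site, a pair of 10-base half-sites without spacer that reads alike on both strands. RefSeq windows (250 bases before to 50 after a start) were at hand for 6 of the 7 members, in 8 windows. The best match of 20 bases in each of 4 members is shown to compare how near each upstream region comes to that site. Capitals mark bases that match the consensus and lower case marks mismatches.
Ccng1, chr11:40755462-40755481, minus strand: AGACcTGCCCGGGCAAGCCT
Mdm4, chr1:133025626-133025645, minus strand: AGGtATGCTgtGGCAAGCCT
Ppm1d, chr11:85311112-85311131, plus strand: GGGCggGggCGAGCTTGCTC
Mdm2, chr10:117710925-117710944, minus strand: GAACTTGCCTAGcgAccaTT

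Ccng1 had 1 mismatch, at positions -195 to -176 from its start, and a match at least as close occurred in 0.0883% of 32851 RefSeq windows. Mdm4 had 3 mismatches in the window of an internal start, which 6.29% of windows equalled or bettered. Ppm1d had 4 (30.2% of windows), Mdm2 and Rchy1 had 5 (76.6%) and Cop1 had 6 (98.5%). Mdm4 and Rchy1 each had another window, with 6 mismatches (98.5%), and the values above are from the better one. The percentages are per window and are not adjusted for this choice. A match is a description of letters, and no match within 300 bases says nothing of sites elsewhere, such as introns. The 250 bases before the Ccng1 start (chr11:40755287-40755536, minus strand) are shown with the 20-base site in capitals.
Ccng1 upstream: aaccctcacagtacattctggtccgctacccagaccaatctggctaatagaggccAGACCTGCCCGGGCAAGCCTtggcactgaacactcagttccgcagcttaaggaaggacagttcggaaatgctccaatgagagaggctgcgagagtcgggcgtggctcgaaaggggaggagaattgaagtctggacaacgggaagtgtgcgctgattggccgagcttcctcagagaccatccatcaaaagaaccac

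After nutlin, 6 of the 7 genes rose in all 18 pairs of untreated and treated libraries (same line and construct), and Cop1 rose in 1 of 18. The share of all genes that rose in all 18 pairs was not counted. Scaled by gene length, the untreated order was Mdm4 (43.2 ± 7.24 CPM per kb, mean ± SD, n = 18), Trp53inp1 (37.7 ± 8.56), Mdm2 (35.8 ± 13.4), Ccng1 (21.2 ± 4.41), Ppm1d (17.5 ± 2.48), Rchy1 (7.45 ± 1.38) and Cop1 (5.66 ± 1.16). The first 3 lie within each other's spread, as do Ccng1 and Ppm1d. Under nutlin Trp53inp1 was highest per length (219 ± 123 CPM per kb), followed by Mdm2 (172 ± 135), Ccng1 (160 ± 46.1), Mdm4 (118 ± 72.2), Ppm1d (38.8 ± 18.4), Rchy1 (20.4 ± 9.25) and Cop1 (4.20 ± 0.663). The spread of the first 4 is wide because lines and constructs are pooled here. These are RNA levels in cell populations, in which fewer cells of a kind and less RNA per cell cannot be told apart.

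**Figure D1:**
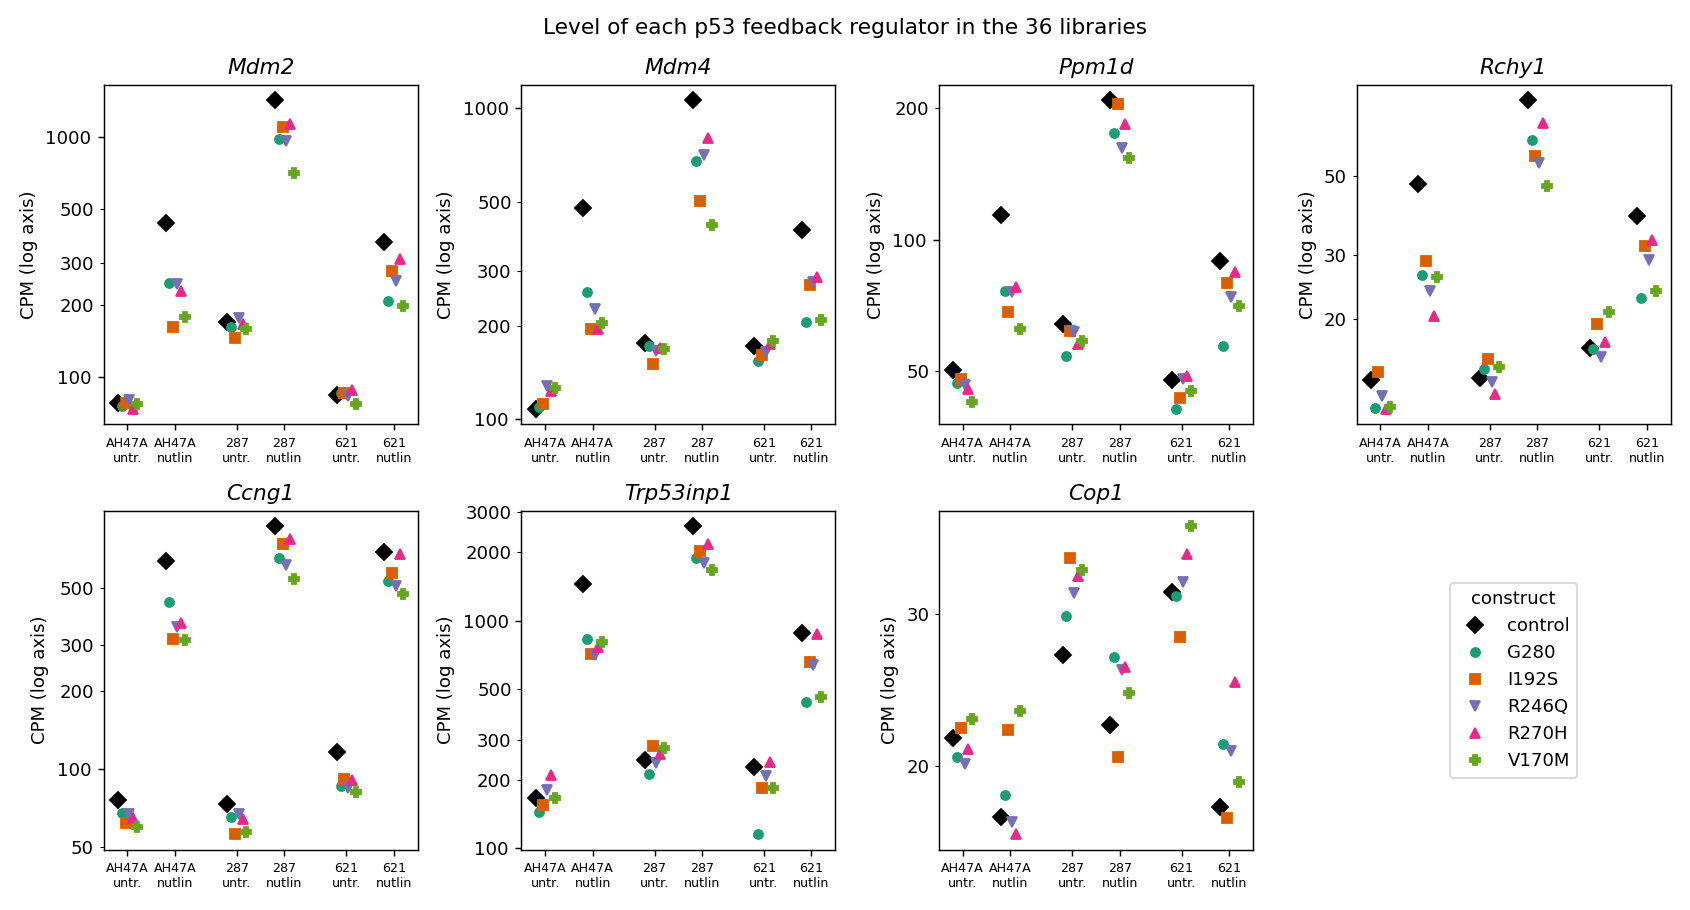
Level of each gene (CPM, log axis) in all 36 libraries, by line and treatment (untr. = untreated), with 1 point per construct. Black diamonds are the control. After nutlin the control point is the highest of its line for every gene but Cop1, and Cop1 lies lower after nutlin than before in 17 of the 18 pairs.

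In control cells, 6 of the 7 genes were called higher after nutlin (edgeR quasi-likelihood test, Benjamini-Hochberg adjusted p under 0.05), against 21.9% of all genes tested. Ccng1 had the steepest rise. Untreated control libraries held 75.5 CPM of Ccng1 in line AH47A, 73.4 in line 287 and 116 in line 621. Treated, these lines held 631, 864 and 686 CPM, so the groups lie far apart. The fitted log2 change was 3.05 ± 0.23 (SE, adjusted p = 2.71e-10).

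Trp53inp1 came next. Its control level went from 167 to 1454.5 CPM in AH47A, from 245 to 2610.3 in 287 and from 227 to 879 in 621. The log2 change was 2.81 ± 0.31 (adjusted p = 2.16e-07). Mdm2 in control cells went from 78.0 to 440.1 CPM in AH47A, from 169.6 to 1419.6 in 287 and from 84.6 to 365 in 621. Its log2 change was 2.56 ± 0.28 (adjusted p = 1.84e-07). Mdm4 rose less, by 2.0025 ± 0.30 on the log2 scale (adjusted p = 2.05e-05), from 108, 176 and 172 CPM to 478.5, 1062 and 405 CPM in AH47A, 287 and 621. Both partners of the inhibitory pair thus lay higher in every treated control library than in any untreated one.

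Of the other regulators, Rchy1 rose by 1.87 ± 0.32 on the log2 scale (adjusted p = 7.49e-05) and Ppm1d by 1.26 ± 0.22 (adjusted p = 0.000116). Rchy1 remained a low gene, at 38.7 to 80.9 CPM after nutlin in control cells. Cop1 fell by 0.46 ± 0.17 (adjusted p = 0.0301), where 20.8% of genes were called lower. Its control values of 21.5, 26.9 and 31.8 CPM became 17.5, 22.3 and 17.9 CPM, and the 2 ranges overlap across lines. The Cop1 call was lost without line 287, without line 621, and without the control library of 287 after nutlin or of 621 before or after it (adjusted p 0.0691 to 0.259). It was also lost without the term for line (adjusted p = 0.216) and with the control groups fitted alone (0.11). The Ppm1d call was lost without the term for line (log2 1.35, adjusted p = 0.0501).

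The same 6 genes rose with G280, I192S, R246Q and R270H, and 5 of them with V170M. The shares of all genes called higher were 10.7% for G280, 13.6% for I192S, 12.1% for R246Q, 15.8% for R270H and 5.77% for V170M. Ccng1 rose by 2.72 to 3.01 in log2 units and Trp53inp1 by 2.11 to 2.60 across the 5 mutants. Mdm2 rose by 1.57 (V170M) to 2.08 (R270H). Mdm4 was the gene not called with V170M (log2 0.73 ± 0.30, adjusted p = 0.12). With each line given its own response, edgeR did call its rise there (log2 0.75, adjusted p = 0.000199). Rchy1 passed with V170M by little (0.99 ± 0.32, adjusted p = 0.0496, 0.081 without the filter on low counts). Cop1 was called lower with I192S alone among the mutants (log2 -0.47 ± 0.17, adjusted p = 0.0419, 11.2% of genes called lower). This call was lost in 7 of the 9 fits that left out a line or library. It was also lost with other size factors, no filter on low counts, no term for line or the I192S groups alone (adjusted p 0.0504 to 0.319). Cop1 was at -0.39 with R246Q, -0.40 with R270H and -0.47 with V170M. In the model with a response per line, edgeR called these lower too (adjusted p = 0.0192, 0.0163 and 0.00597).

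Averaged over the 5 mutants, the responses were 2.85 ± 0.10 for Ccng1, 2.28 ± 0.14 for Trp53inp1, 1.87 ± 0.12 for Mdm2, 1.26 ± 0.14 for Rchy1, 1.11 ± 0.13 for Mdm4, 0.98 ± 0.10 for Ppm1d and -0.40 ± 0.08 for Cop1. All 7 passed, 6 higher (30.6% of all genes) and Cop1 lower (32.9%). Without the term for line only 2 members passed with G280, I192S or R246Q, 3 with R270H and 1 with V170M. Leaving out 1 library of line 287, treated or untreated, left 3 called with G280 or V170M, as did leaving out the untreated 287 library with R246Q.

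The next question was whether the mutants held the regulators back. Under nutlin, all 6 rising genes were lower with every mutant than with the control of the same line, in 15 of 15 comparisons each. Cop1 was lower in 4 of 15. For the mean of the 5 mutants minus the control, 6 of 7 genes were called lower, against 8.76% of all genes. Every mutant is set against the same 3 treated control libraries, so these 15 comparisons and the results of different mutants are not independent of each other. The share of all genes lower in all 15 was not counted.

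Mdm4 showed the largest difference, log2 -0.89 ± 0.10 (adjusted p = 3.61e-06). In AH47A, Mdm4 after nutlin stood at 478.5 CPM with the control, 205 with V170M, 196 with R270H, 227 with R246Q, 195 with I192S and 256 with G280. In line 287 it stood at 1062 CPM with the control, 423 with V170M, 805 with R270H, 708 with R246Q, 504 with I192S and 678 with G280. In line 621 it stood at 405 CPM with the control, 209 with V170M, 288 with R270H, 278 with R246Q, 269.7 with I192S and 206 with G280. Within each line the control was the highest of the 6, and across lines the groups overlap because 287 is high throughout.

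Mdm2 followed, at log2 -0.74 ± 0.09 (adjusted p = 1.29e-05). In AH47A, Mdm2 after nutlin was 440.1 CPM with the control, 179 with V170M, 229.5 with R270H, 245 with R246Q, 161 with I192S and 247 with G280. In line 287 it was 1419.6 CPM with the control, 707 with V170M, 1130.2 with R270H, 958 with R246Q, 1095 with I192S and 979 with G280. In line 621 it was 365 CPM with the control, 198 with V170M, 310.5 with R270H, 251 with R246Q, 276 with I192S and 209 with G280. V170M was the lowest in 287 and 621, and I192S in AH47A.

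The remaining genes differed by less. Trp53inp1 was lower by log2 -0.65 ± 0.12 (adjusted p = 0.000806), with 708 to 833 CPM in AH47A mutants against 1454.5 in the control, 1678 to 2174 against 2610.3 in 287, and 439 to 871 against 879 in 621. Rchy1 was lower by -0.63 ± 0.10 (adjusted p = 0.000114) and Ccng1 by -0.52 ± 0.07 (adjusted p = 3.38e-05). Ccng1 with the mutants lay at 314 to 439 CPM in AH47A, 542 to 770.0 in 287 and 472 to 673 in 621. The smallest of the 6 called differences was that of Ppm1d (-0.41 ± 0.08, adjusted p = 0.000445). Cop1 did not pass (0.17 ± 0.10, adjusted p = 0.295).

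**Figure D2:**
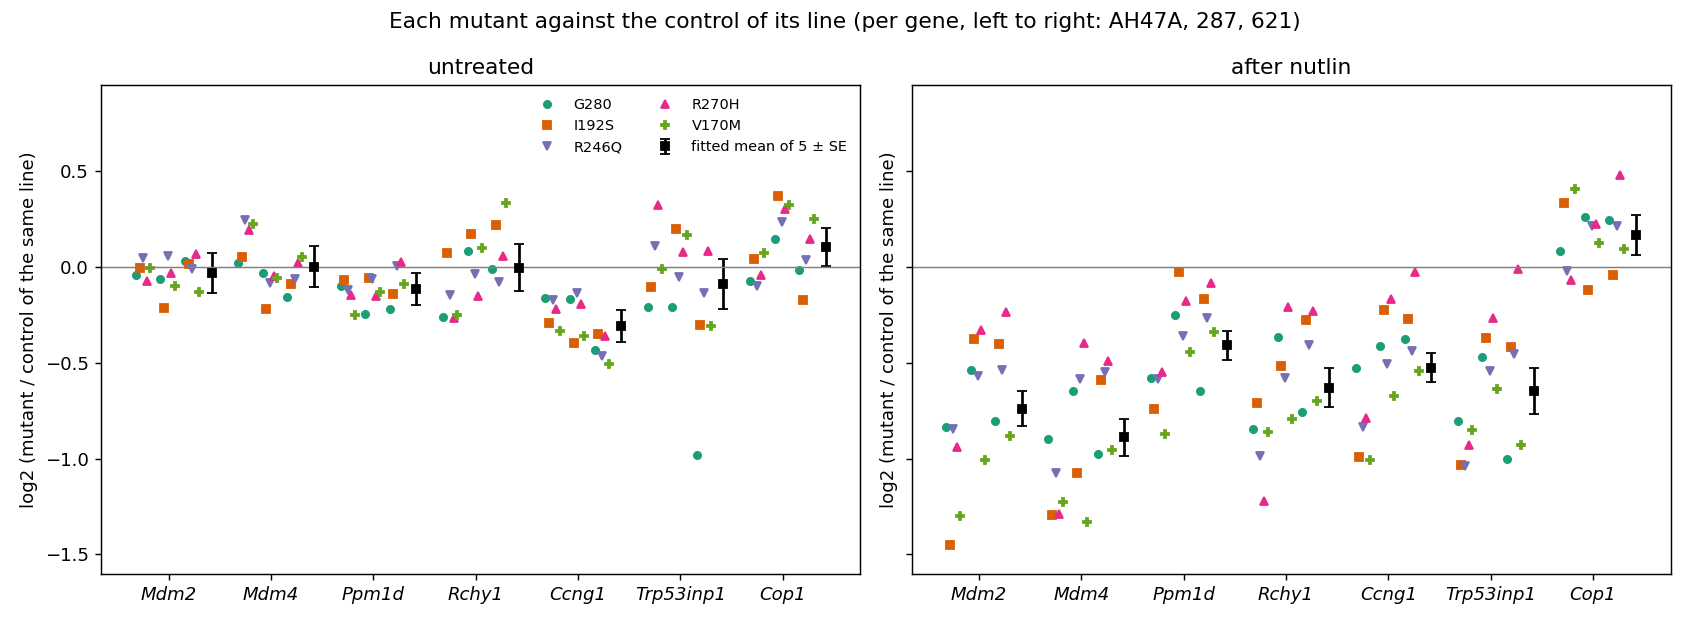
Each mutant against the control of its line, as log2 of the ratio of CPM, untreated (left) and after nutlin (right). Coloured symbols are single comparisons (15 per gene and panel) and black squares the fitted mean of the 5 mutants ± SE. After nutlin every symbol of the 6 rising genes lies below 0.

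By mutant, members called lower under nutlin numbered 6 with V170M (against 9.84% of all genes), 6 with G280 (5.11%), 6 with R246Q (2.78%), 5 with I192S (1.5%) and 3 with R270H (1.68%). With R270H the 3 were Mdm2 (log2 -0.51 ± 0.13), Mdm4 (-0.71 ± 0.13) and Rchy1 (-0.52 ± 0.14). Without the filter on low counts the calls of Mdm2 with R270H (adjusted p = 0.0516) and of Trp53inp1 with I192S (0.0974, from 0.0461) were lost. With V170M Mdm4 differed by -1.18 ± 0.14 (adjusted p = 6.67e-06) and Mdm2 by -1.08 ± 0.13 (adjusted p = 7.08e-06). Ppm1d missed the threshold with I192S (-0.30 ± 0.10, adjusted p = 0.0934).

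These calls come from a model in which each line has its own response. With 1 additive term for line, which leaves the differences between the lines' responses in the error, no member was called in any single mutant by edgeR (unadjusted p under 0.05 for 6 members with V170M, 6 with G280, 5 with R246Q, 4 with I192S and 1 with R270H), and Mdm4 alone was called for the mean of 5 (adjusted p = 0.0389, Mdm2 0.065). Without a term for line none was called (unadjusted p under 0.05 for 2 with V170M, 2 for the mean of 5 and 0 for the others). Fitting the groups compared alone left 0 called with I192S and R270H. The 6 calls for the mean of 5 and for V170M held when any single line was left out. They also held without any single treated library of the groups compared. Other libraries were not left out here.

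The calls of the other mutants rested on particular lines. With G280, 0 members were called without line 621 and 2 without its treated G280 library. With I192S, 0 were called without line 287, 2 without line AH47A or either its treated control or treated I192S library, and 3 without the treated I192S library of 287 or the treated control of 621. With R246Q, 2 were called without line 287. With R270H, 0 were called without AH47A or 621, and 1 without 287 or without the treated control or R270H library of AH47A.

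Within lines, the mean of 5 mutants was set against the single control library of the line, a comparison added after seeing the data. Since each control arm is 1 library, the spread comes from the mutant libraries alone, pooled over the lines, and the control is assumed to vary like them. A peculiarity of that 1 library cannot be told apart from an effect of the mutants. In AH47A 6 members were called lower (1.66% of all genes), among them Mdm4 at log2 -1.14 ± 0.16, Mdm2 at -1.06 ± 0.15 and Ccng1 at -0.82 ± 0.11. In 287 Mdm4 was the only member called (-0.80 ± 0.17, adjusted p = 0.024, with 0.398% of genes called lower). In 621 it was again Mdm4 alone (-0.70 ± 0.17, adjusted p = 0.0452, 0.747% of genes). Mdm2 was at -0.56 ± 0.15 in 287 (adjusted p = 0.072) and -0.57 ± 0.16 in 621 (adjusted p = 0.0618). Whether this difference itself varies between lines did not pass an F test for any member (edgeR adjusted p 0.725 to 0.999, unadjusted 0.0138 for Ccng1 and above 0.05 for the others), where 0.0325% of genes were called.

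Before nutlin, no member was called in any mutant or in the mean of 5, by edgeR or by DESeq2. Unadjusted p was under 0.05 for 2 members with G280, for 1 with each other mutant and for 1 in the mean of 5 with either tool. Of all genes, 0.00812% were called with each mutant and 0.0162% in the mean of 5. Trp53 was the 1 gene called with each mutant and 1 of the 2 called in the mean of 5. The fitted differences of the mean of 5 were -0.03 ± 0.10 for Mdm2, 0.0012 ± 0.11 for Mdm4, -0.12 ± 0.08 for Ppm1d, -0.0030 ± 0.12 for Rchy1, 0.10 ± 0.10 for Cop1 and -0.09 ± 0.13 for Trp53inp1. The lowest single value relative to its control was Trp53inp1 in the untreated G280 library of 621, at 115 CPM against 227 CPM. Ccng1 had the widest mean offset, with log2 -0.31 ± 0.08 and all 15 mutant libraries below the control of their line.

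The untreated Ccng1 values show this offset. In AH47A the mutants held 59.8 to 67.3 CPM against 75.5 with the control, in 287 they held 55.8 to 66.9 against 73.4, and in 621 they held 81.6 to 91.3 against 116. In no line did the mutants reach the control, which is a single library per line. How many of all genes show this was not counted. The unadjusted p was 0.00113 and the adjusted p was 1, so the offset did not pass over all genes.

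A lower level under nutlin can stand on a lower start or on a smaller rise, and the response difference (the mutant's log2 response minus that of the control) measures the rise. For the mean of 5 mutants it was called for 3 members: Mdm4 (-0.89 ± 0.15, adjusted p = 0.00371), Mdm2 (-0.71 ± 0.14, adjusted p = 0.00922) and Rchy1 (-0.63 ± 0.16, adjusted p = 0.0277), where 1.53% of all genes were called lower. In all 15 comparisons these 3 genes rose less with the mutant than with the control of the line. The share of all genes that did so was not counted. Trp53inp1 also rose less in 15 of 15, with a difference of -0.56 ± 0.18 that did not pass (adjusted p = 0.0946). Ppm1d was at -0.29 ± 0.11 (adjusted p = 0.15, 14 of 15) and Cop1 at 0.07 ± 0.14.

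For Ccng1, the response difference was -0.22 ± 0.12 (adjusted p = 0.332) and 9 of 15 comparisons were below the control. Its lower level under nutlin thus went with an untreated offset of -0.31 in the same direction, which did not pass over all genes. For Mdm2 and Mdm4 the untreated offsets were close to 0 (-0.03 and 0.0012), and the response differences came close to the differences under nutlin. Whether Ccng1 and Mdm2 differ in this respect was not tested.

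V170M was the single mutant with members called in the response difference: Mdm4 (-1.24 ± 0.19, adjusted p = 0.00194), Mdm2 (-0.996 ± 0.18, adjusted p = 0.00577) and Rchy1 (-0.89 ± 0.21, adjusted p = 0.0173), against 1.83% of all genes called lower. With G280, I192S, R246Q and R270H edgeR called 0 members (unadjusted p under 0.05 for 3, 4, 6 and 3 members), and DESeq2 called 2, 1, 2 and 1. The shares of all genes called lower by edgeR were 0.0243%, 0%, 0.00812% and 0%. Neither the additive model nor the one without line called any member in V170M or the mean of 5 (with the additive term, unadjusted p under 0.05 for 2 in each). Without line 287, 0 members were called in either, and without line 621, 1. The Rchy1 call was also lost without several single libraries, among them the treated AH47A control for V170M and any untreated control for the mean of 5.

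By mean CPM after nutlin, the control was highest and V170M lowest for all 6 rising genes, and the places between varied by gene. For Mdm2 the order was control 741 ± 588 CPM (mean ± SD, n = 3), R270H 557 ± 498, I192S 511 ± 509, R246Q 485 ± 410, G280 478 ± 434 and V170M 361 ± 299.8. For Mdm4 it was control 649 ± 359.8, R270H 429.8 ± 329, R246Q 404 ± 264, G280 380.2 ± 259, I192S 323 ± 161 and V170M 279 ± 125. Line 287, with the highest levels, weighs most in these means, and the SDs hold the line differences. I192S thus came next after R270H for Mdm2 but next to last for Mdm4. The fitted differences from the control, in which the lines count on the log2 scale, were widest with V170M and narrowest with R270H for all 6 genes. The margin of R270H was slight for Rchy1 (log2 -0.516 ± 0.14, against -0.519 ± 0.14 with I192S) and for Ppm1d (-0.28 ± 0.10, against -0.30 ± 0.10). Single lines departed from this order: in AH47A R270H was the lowest mutant for Rchy1, at 20.3 CPM, and next to lowest for Mdm4, at 196 CPM.

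Between neighbours in the orders by mean CPM, 3 steps were called under nutlin, all from control to R270H: in Mdm2 (adjusted p = 0.0264), Mdm4 (adjusted p = 0.00693) and Rchy1 (adjusted p = 0.0314). None was called untreated. These 3 steps are the R270H calls given above, not further results. Neighbours were chosen from the same levels, and p was adjusted over genes, not over steps. Steps between mutants were small for Mdm2, the largest being G280 above V170M by log2 0.35 ± 0.13 (adjusted p = 0.83). An F test over the 5 mutants called no member untreated, under nutlin or in the response with edgeR or DESeq2 (unadjusted p under 0.05 for 1, 4 and 0 members with either tool), and it called 0.0812%, 0.0243% and 0% of all genes. Under nutlin the lowest adjusted p was 0.215 with edgeR and 0.0536 with DESeq2, and without line AH47A 2 members were called. Among the 10 pairs of mutants under nutlin, members were called in 1, V170M against R270H, the widest and the narrowest difference from the control. Mdm2 was lower with V170M by -0.57 ± 0.13 (edgeR adjusted p = 0.0223 over genes, not over pairs) and Ccng1 by -0.42 ± 0.10 (adjusted p = 0.0268), with 1.61% of all genes called lower. In the same pair Trp53 was higher with V170M by 0.95 ± 0.24 (adjusted p = 0.0365). This held in 287 (2024 CPM against 799) and 621 (1278 against 446), but not in AH47A (780 against 799). Mdm2 was lower with V170M in AH47A as well (179 CPM against 229.5). V170M was also the mutant with the highest mean Trp53 after nutlin (1361 ± 626 CPM), and R270H had the lowest (681 ± 204). The part of the construct's level in the order was not tested.

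The lines also differed in their response. In line 287 nutlin raised Mdm2 by log2 2.66 ± 0.09, against 1.64 ± 0.10 in AH47A and 1.64 ± 0.09 in 621, with the 6 constructs of a line as its replicates. In AH47A the lowest, median and highest Mdm2 values were 74.1, 77.7 and 80.6 CPM untreated and 161, 237 and 440.1 CPM after nutlin. In 287 they were 146, 164 and 177 CPM untreated and 707, 1037 and 1419.6 CPM after nutlin. In 621 they were 77.3, 85.1 and 88.6 CPM untreated and 198, 264 and 365 CPM after nutlin. Every 287 library was thus above every library of the other 2 lines within its treatment. For how many of all genes 287 stands apart like this was not counted.

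Mdm4 rose by 2.01 ± 0.10 in 287, 1.07 ± 0.10 in AH47A and 0.69 ± 0.10 in 621. Rchy1 rose by 2.13 ± 0.10 in 287, 1.20 ± 0.11 in AH47A and 0.74 ± 0.10 in 621. For Ppm1d the log2 responses were 1.60 ± 0.07 in 287, 0.75 ± 0.07 in AH47A and 0.72 ± 0.07 in 621. The 3 genes share the order with 287 first.

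Ccng1 rose by 3.44 ± 0.08 in 287, 2.58 ± 0.08 in AH47A and 2.64 ± 0.08 in 621, and Trp53inp1 by 3.00 ± 0.13, 2.34 ± 0.12 and 1.76 ± 0.12. Cop1 followed another order. It fell by 0.69 ± 0.09 in 621 (28.6% of genes called lower) and by 0.39 ± 0.09 in 287 (35.7%), while in AH47A it was at -0.15 ± 0.09 (adjusted p = 0.207). All 6 others were called higher in each line, where 21.4% of genes were called higher in AH47A, 36.2% in 287 and 26.4% in 621.

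**Figure D3:**
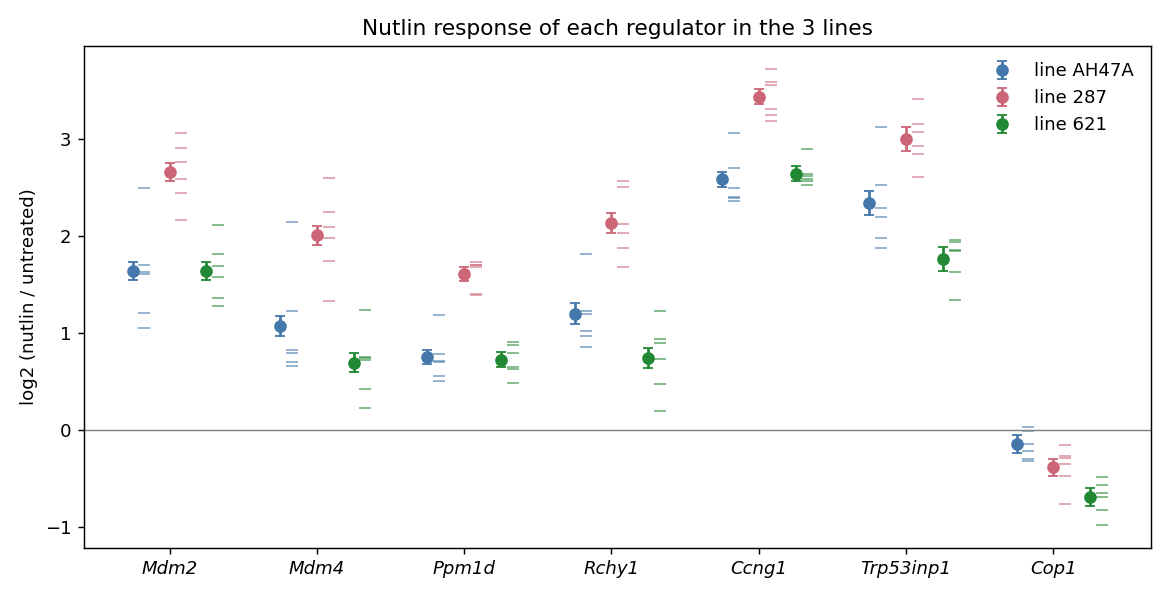
Nutlin response of each gene (log2 of nutlin over untreated) by line. Circles are the fitted response of a line ± SE and dashes the 6 constructs of that line. Line 287 has the highest response for 6 of 7 genes, and for Cop1 line 621 lies lowest.

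An F test of the responses between the 3 lines called all 7 members (edgeR adjusted p from 1.76e-08 for Ppm1d to 0.00253 for Cop1), as it did 60.3% of all genes, so a difference between these lines is common in the whole table. In pairs, the response in 287 exceeded that in AH47A for 6 members (24.3% of genes called higher), by 0.66 ± 0.17 for Trp53inp1 up to 1.02 ± 0.13 for Mdm2. In 621 it was below that in 287 for the same 6 (21.5% of genes called lower). Between 621 and AH47A it was lower in 621 for Mdm4, Rchy1, Cop1 and Trp53inp1 (15.8% of genes). Averaged over the 6 constructs, Mdm2 differed by 0.0047 ± 0.13, Ppm1d by -0.02 ± 0.10 and Ccng1 by 0.06 ± 0.11. In the control pairs alone, a single pair per line, these genes rose more in AH47A than in 621. The log2 rises there were 2.4962 against 2.1086 for Mdm2, 1.1792 against 0.90239 for Ppm1d and 3.0643 against 2.5627 for Ccng1. Whether the control responses differ between these lines was not tested.

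The untreated levels also differed between lines for all 7 genes by the F test, as for 79.3% of all genes. Mdm2 was higher in 287 than in AH47A by log2 1.08 ± 0.09 (adjusted p = 3.01e-10, 29.7% of genes called higher). Ccng1 differed the other way, with 621 above 287 by 0.52 ± 0.08 (adjusted p = 1.47e-06, also 29.7% of genes). The summed T cell and myeloid markers were highest in treated 287, the line and treatment with the highest levels of the 6 rising genes. T cell markers summed to 16.5 to 22.7 CPM in treated 287 libraries against 5.47 to 6.98 in untreated ones and at most 7.82 in the other lines, with Cd3g, Cd4 and Cd8a at 0 in all treated 287 libraries. Myeloid markers summed to 36.03 to 58.5 CPM in treated and 16.96 to 24.3 in untreated 287 libraries, and to at most 28.2 in the other lines, with Elane at 0. Fibroblast markers (median 2.40 CPM untreated and 1.55 treated) and erythroid markers (0.281 and 0.248) were not higher in treated than in untreated 287. Of the 10 B lineage markers, 6 were called lower after nutlin in control cells (median log2 -0.50, with 20.8% of all genes called lower). Their summed median went from 6142 to 4725 CPM in AH47A, from 6466 to 5260 in 287 and from 7274 to 6116 in 621. The part of these markers in the responses and line differences was not tested.

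Other genes that act on p53 or MDM2 were counted in lists. Of 15 further ubiquitin ligases and deubiquitinases, 3 rose and 3 fell after nutlin in control cells (median log2 -0.16, against -0.01 over all genes). Of all genes, 21.9% rose and 20.8% fell, so these counts are near the background. Trim24, a ligase that targets p53, rose by 1.16 ± 0.18, Mkrn1 by 0.83 ± 0.22 and Siah1a by 0.62 ± 0.17. Usp7, which deubiquitinates both MDM2 and p53, fell by 0.36 ± 0.08. With the mutants under nutlin 1 of the 15 was called, Huwe1, higher by 0.14 ± 0.04 (adjusted p = 0.013), where 7.22% of all genes were called higher, and the list's median was -0.02.

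Of 29 kinases, acetylases and partners tested, 6 rose and 5 fell after nutlin in control cells (median 0.04), again near the shares of all genes. Atm, the kinase that phosphorylates p53 after DNA breaks, rose by 1.67 ± 0.51 (adjusted p = 0.0103) and Rrn3, a polymerase I initiation factor, by 1.33 ± 0.19. Chek2, another damage kinase, fell by 0.90 ± 0.13. Under nutlin 4 of the 29 were lower and 3 higher with the mean of 5 mutants (median 0.03), where 8.76% and 7.22% of all genes were. Rrn3 was lower by -0.53 ± 0.05 (adjusted p = 4.38e-07), Atm was lower by -0.47 ± 0.08 (adjusted p = 0.00019) and Hipk2 was higher by 0.32 ± 0.11 (adjusted p = 0.0462). Atm and Rrn3 were also the 2 of the list called in the response difference, at -0.46 ± 0.12 and -0.48 ± 0.08. There 1.53% of all genes were called lower.

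Of 14 PP2A subunits and relatives of the members, 3 rose and 1 fell in control cells (median 0.04), a share of rises near that of all genes. Ccng2, the closest relative of Ccng1, rose by 0.86 ± 0.22, and Ppp2r5b, a PP2A regulatory subunit, fell by 1.001 ± 0.24. With the mutants under nutlin Ppp2r5b was higher by 0.61 ± 0.17 (adjusted p = 0.012) and Ppp2r5c lower by -0.15 ± 0.04 (adjusted p = 0.0207).

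Among 23 p53 targets outside feedback that were tested, 20 rose and 1 fell after nutlin in control cells (median log2 2.54). The shares of all genes were 21.9% and 20.8%. The death receptor gene Fas, Phlda3 and Eda2r had the largest fitted rises, and their untreated counts were at or near 0, so no fold is given. With the mutants under nutlin 16 of the 23 were lower and 0 higher (edgeR, unadjusted p under 0.05 for 20), where 8.76% and 7.22% of all genes were. The list's median was -0.61, against 0.00078 over all genes. Fas was lower by -1.68 ± 0.24, Eda2r by -1.44 ± 0.27 and Phlda3 by -1.23 ± 0.20. The 6 rising feedback genes, at -0.41 to -0.89, lie within the range of this list, and whether Mdm2 or Mdm4 differ from it was not tested. In the response difference 4 of the 23 were called, all lower (Ei24, Ercc5, Gtse1 and Polk), where 1.53% of all genes were called lower. The list was chosen with earlier results of these data known, so its direction is a description.

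The genes whose pattern was most like each member were ranked by Pearson's r of log2 CPM over the 36 libraries after each line's mean was removed. Since untreated and treated libraries lie apart, such r values mostly follow the nutlin contrast, and they are descriptions. Mdm2 was most like Susd6 (r = 0.994), Rnf169 (0.993) and Polk (0.993), and Ccng1 was most like Ddias (0.994), Ercc5 (0.991) and Micall2 (0.99). For Ppm1d they were Sp1 (0.988), Peli1 (0.987) and Eda2r (0.985), and for Trp53inp1 Sh3bgrl2 (0.986), Ddias (0.985) and Rnf169 (0.983). Mdm4 had Alkbh1 (0.968), Fnip1 (0.967) and Dopey1 (0.966), and Rchy1 had Itfg2 (0.979), Lrig2 (0.976) and Slc19a2 (0.972). The member Rchy1, left out of the ranking, was more like Mdm4 (0.971) than any gene named for it. For Cop1 the nearest were Cd48 (0.912), Pgk1 (0.885) and 1190002N15Rik (0.884), all well below the values of the rising members.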

How the data were processed

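RNA was sequenced from 36 cultures. The deposited values are raw counts of reads per gene, made by the authors with bcl2fastq 1.8.4 and featureCounts on mm10/GRCm38, per the submitters' processing notes. Aligner, annotation and strand are not given in those notes or any other source used here. From these counts, edgeR 4.0.16 (R 4.3.3, TMM, filterByExpr with a minimum count of 10, robust quasi-likelihood fit) tested 12321 genes holding 99.94% of the counts, with Benjamini-Hochberg adjustment over all of them. An additive model (12 groups plus line, 22 residual degrees of freedom, biological coefficient of variation 16%) gave the nutlin response of each construct. A model with line by treatment (20 degrees, 9.68%) gave differences between constructs and between lines. Lines pair the libraries by label, and same-line libraries deviated together in 198 of 198 pairs (r 0.629 to 0.929). DESeq2 1.42.0 was 1 of the alternatives, and the tests were checked on simulated data. CPM use TMM library sizes, and CPM per kb divides by the deposited gene length. Upstream windows and coordinates are RefSeq's for GRCm38.p6. The text names all members, and from each list up to 3 genes with the largest control response and up to 3 called under nutlin. It also names 3 like genes per member, taken from outside the members. The members and lists were chosen with earlier results of these data known. The comparison within lines was added after seeing the data.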

Additional observations from a re-analysis of the deposited data

Results flagged for a closer look

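The nutlin response of all 7 members differed between the 3 lines by an F test (edgeR, adjusted p = 1.33e-07 for Mdm2, 4.57e-08 for Mdm4, 1.76e-08 for Ppm1d, 2.09e-08 for Rchy1, 0.00253 for Cop1, 9.63e-08 for Ccng1 and 6.03e-06 for Trp53inp1), as did that of 60.3% of all genes. In each of these tests the 6 constructs of a line stood in for replicates.

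The response of Mdm2, Mdm4 and Rchy1 differed between V170M and the control (edgeR adjusted p = 0.00577, 0.00194 and 0.0173) and between the mean of 5 mutants and the control (0.00922, 0.00371 and 0.0277). All 3 genes rose less with V170M than with the control in each of the 3 lines. Groups of 3 libraries were too small to be examined for single libraries that stand apart.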

How the results depend on the processing

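For 147 results on members, 2429 values came from alternatives: 2134 kept direction and side of the threshold, 243 lost the call, 15 gained it and 37 changed sign, none of them of a called result.

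Without the replicate block (cell line), members called higher after nutlin were 2 with G280, I192S and R246Q, 3 with R270H and 1 with V170M. Without it, members called lower under nutlin were 0 for every mutant and the mean of 5, as were those in the response difference of V170M and of the mean of 5, and 0 neighbouring constructs differed. With an additive line term these counts were also 0, except 1 under nutlin for the mean of 5. The block moved no other count of calls by over 1.5 times. Fitting the groups compared alone gave 3 higher with G280 and V170M, 0 lower under nutlin with I192S and R270H, and response differences in 2 members with G280 and 3 with R246Q. DESeq2 gave response differences in 2, 1, 2 and 1 members with G280, I192S, R246Q and R270H, where edgeR gave 0.

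Single lines, and single libraries of the groups compared, were left out in turn. Members called higher were then 3 to 6 with G280 and R246Q and 4 to 6 with I192S. With R270H they were 5 to 6 and with V170M 3 to 5. Lower under nutlin were 0 to 6 with G280, 0 to 5 with I192S, 2 to 6 with R246Q and 0 to 3 with R270H, against 6 throughout for V170M and the mean of 5. Response differences ranged from 0 to 4 members for V170M and the mean of 5 and from 0 to 1 for G280, I192S and R270H. When a line was left out, neighbouring constructs called under nutlin ranged from 0 to 1, and the F test of the mutants under nutlin called 0 to 2.

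Sign changes concerned values near 0. Mdm4 untreated went from 0.0012 to -0.0012 with size factors, -0.0040 without the filter on low counts, -0.00048 with DESeq2, -0.012 without the block and -0.0023 with the groups compared alone, and ranged from -0.065 to 0.045 on leaving out a line or library. Rchy1 untreated went from -0.0030 to 0.0048 without the block and ranged from -0.071 to 0.075 on leaving out. Trp53inp1 untreated (-0.09) ranged from -0.16 to 0.032, positive without line 621 or its untreated control. Cop1 under nutlin with I192S (0.06) ranged from -0.12 to 0.17, negative without AH47A or its I192S library. The Cop1 response difference of V170M (-0.0042) became 0.013 without the filter and ranged from -0.17 to 0.089 on leaving out. The cause of these changes was not tested. Reads per member over all libraries were fewest for Cop1 (7355) and Rchy1 (7882).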
